A study of Mus musculus with 40 samples.

Results

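Gonadal white adipose tissue of males of the inbred mouse strain C57BL/6J was compared between animals that met a high fat (HF) diet at every stage and animals that met a low fat (LF) diet at every stage. The 20 animals were taken from the 40 of the series by their labels. HH animals (10) were born from dams fed HF and were fed HF after weaning, and LL animals (10) were born from dams fed LF and were fed LF after weaning. The remaining 20 mice, LH (LF dam, HF fed, 10 animals) and HL (HF dam, LF fed, 10 animals), were used for comparison only. Per the study's methods the animals were 9-week-old males, the dams started their diet before mating, and coconut oil was the main fat of both diets. HH and LL animals differed in the maternal diet, in the diet after weaning and in the breeding cage at once, so these cannot be told apart in this comparison. The HH animals came from 4 cages and the LL animals from 4 cages, with 0 cages in common, and littermates of 1 cage are not independent, so any difference between cages makes p-values over animals too small.

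White fat stores triglyceride. Its adipocytes take up fatty acids from the blood, and they also make fatty acids from glucose by de novo lipogenesis, in which ATP citrate lyase (Acly), acetyl-CoA carboxylase (Acaca) and fatty acid synthase (Fasn) act in turn and Elovl6 lengthens the product. The transcription factors ChREBP (Mlxipl) and SREBP-1 (Srebf1) drive these genes when carbohydrate and insulin are high, and a diet rich in fat is known to lower them in liver and fat. Fat pads that expand under a high fat diet are known in mice to raise a small group of genes that includes Mest, Sfrp5 and Lep.

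Total RNA of each animal was hybridised to 1 Illumina bead array, whose deposited values are fluorescence intensities in arbitrary units. The test covered 14248 probes of 9797 genes, those that exceeded background on 20 or more of the 40 arrays. Background was set on each array by 1305 probes of olfactory and vomeronasal receptor genes and lay between 78.06 and 94.28 units. The number of arrays limits the precision. Adipocyte genes were bright on all 20 arrays, and adiponectin (Adipoq) lay between 20988 and 30427 units in HH and between 14536 and 31669 units in LL.

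The HH animals were the heavier ones. At 3 weeks they weighed 11.6 ± 1.25 g in HH, against 9.57 ± 0.937 g in LL (SD, n = 10 each). At the second weighing, which the labels also tie to weaning although it lies far above the 3 week value, HH animals weighed 30.5 ± 1.68 g and LL animals 24.7 ± 1.15 g (SD, n = 10 each), a difference of 23.6%. All 10 HH animals lay above the median of LL at the second weighing, and the lowest of them (28.4 g) was heavier than the highest of LL (26.8 g). Body length was 103 ± 1.06 mm in HH (SD, n = 8) and 99.7 ± 1.34 mm in LL (SD, n = 10). In two-sided permutation tests, adjusted over the 4 measures, p was 0.0014 for the weight at 3 weeks, 8e-05 for the second weight and, by an exact test, 0.00037 for length. The second of these rests on the smallest p that 100000 resamples can give. Blood glucose was 189 ± 42.8 mg/dl in HH and 206 ± 34.6 mg/dl in LL (SD, n = 10 each) and its difference did not pass (permutation test, adjusted p = 0.33). Over cage means, 4 against 4, the second weight differed by 5.59 g with an exact p of 0.029, which is the smallest such a test can give, and no measure passed after adjustment (exact adjusted p of 0.076 for both weights and length and 0.23 for glucose).

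Some arrays carried transcripts of organs that lie next to the gonadal pad or the body wall. The geometric mean of 9 epididymis and seminal vesicle genes that passed the filter, of 28 listed, ranged between 155 and 2254 units in HH and between 159 and 5717 units in LL. For 11 testis genes of 26 listed the range was 81.0 to 450 units in HH and 84.0 to 6688 units in LL. LL animals 1 and 4 stood far above the other 8 LL animals for the epididymis list, with 5717 and 4980 units against at most 384 units, and animal 4 also for the testis list, with 6688 units. They were the arrays of LL whose values correlated least with all others (0.890 and 0.827, against a median of 0.951 over 40 arrays). Skeletal muscle genes, 10 measured of 20 listed, ranged between 160 and 13654 units in HH and between 180 and 308 units in LL. Here HH animals 10 (13654 units) and 3 (2010 units) were bright, and HH animals 8 (2254 units) and 3 (853 units) were over the same limit for the epididymis list. Each comparison is given on all 20 arrays and on the 18 arrays without LL animals 1 and 4. HH animals 3, 8 and 10 were kept in both.

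**Figure D1:**
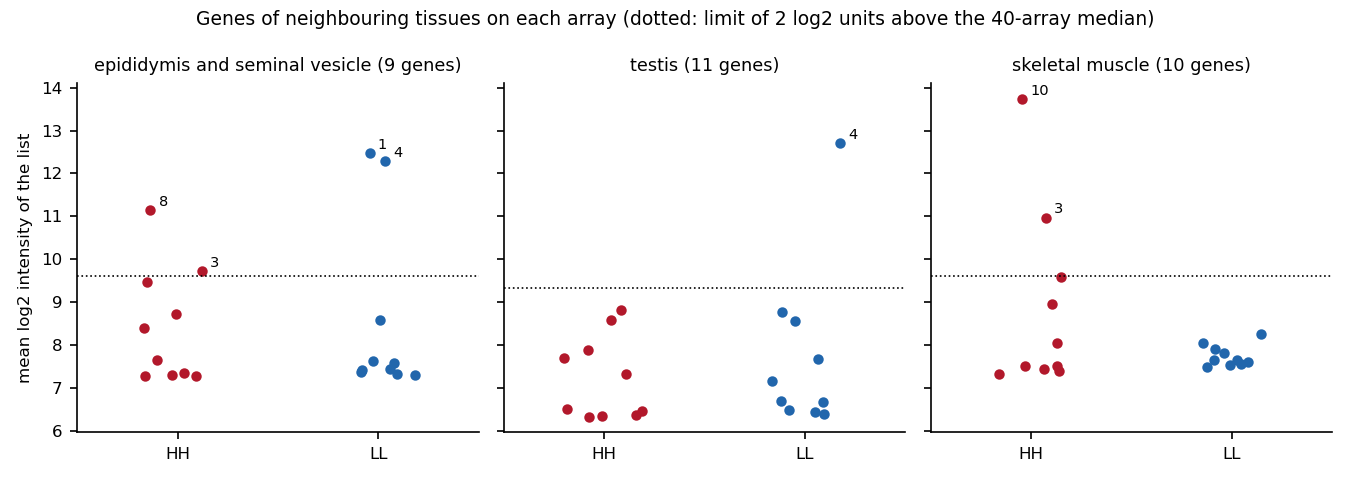
Mean log2 intensity of the genes of 3 neighbouring tissues on each array of HH (left) and LL (right), 1 point per animal, with the animal number beside arrays over the dotted limit of 2 log2 units above the 40-array median. HH animals 3 and 8 and LL animals 1 and 4 lie over the limit for epididymis and seminal vesicle, LL animal 4 for testis, and HH animals 3 and 10 for skeletal muscle.

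On all 20 arrays, 24 probes of 19 genes differed between HH and LL at an adjusted p under 0.05 in limma, a linear model fitted probe by probe with a shared variance prior (0.168% of all probes tested). Of these, 11 were higher in HH (0.0772%) and 13 were lower (0.0912%). On the 18 arrays, 97 probes of 78 genes were called (0.681%), and all 24 were among them. Of the 97, 25 probes were higher in HH (0.175%) and 72 were lower (0.505%). This balance depended on how the arrays were handled: with the epididymis and testis list means as covariates on all 20 arrays 84 probes were higher and 44 lower, and with array weights 88 were higher and 87 lower. The changes were moderate in size, between 1.25-fold and 3.28-fold with a median of 1.79-fold for the 24 probes. In 6 probes (0.0421%) no HH value overlapped with any LL value, and on the 18 arrays this held for 26 probes (0.182%). The median difference over all probes was 0.02 on 20 arrays and -0.01 on 18 arrays on the log2 scale.

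**Figure D2:**
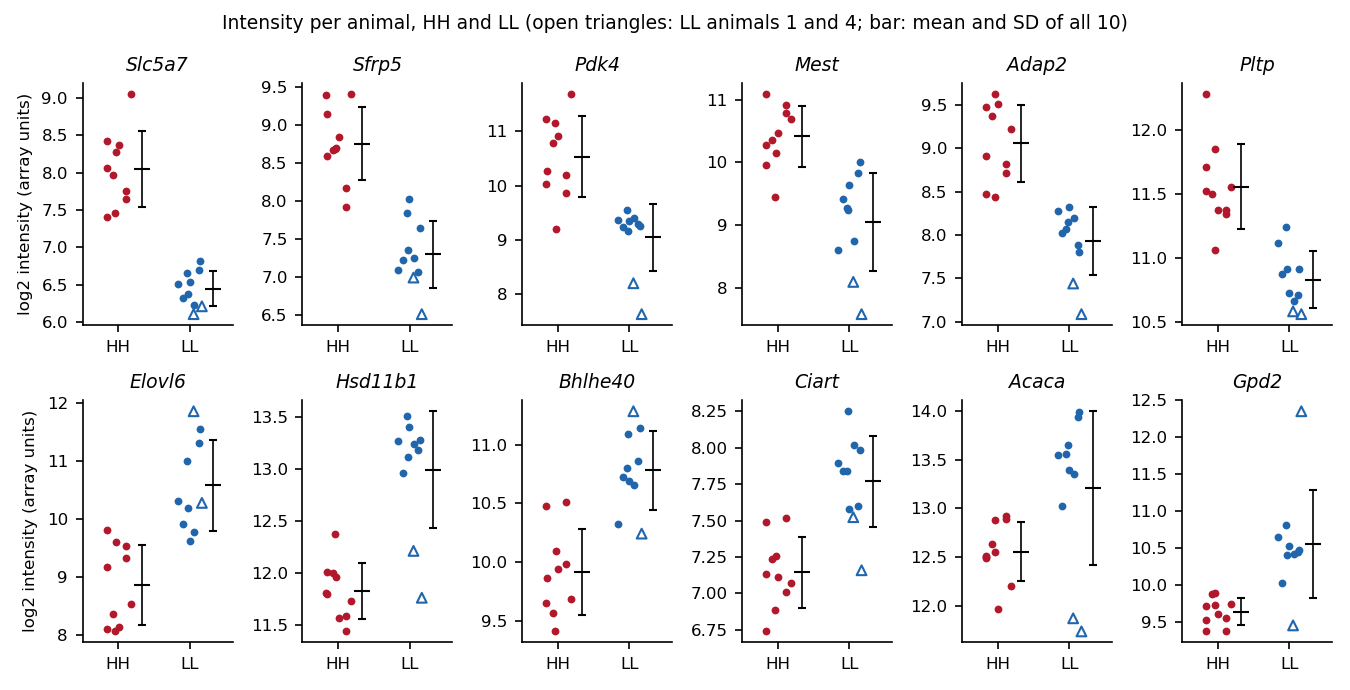
Log2 intensity of 12 genes in each animal of HH (left) and LL (right) in its own panel, with the mean and SD of all 10 animals as a bar and LL animals 1 and 4 as open triangles. Slc5a7 and Adap2 do not overlap between the groups, and Hsd11b1 and Acaca overlap only through the 2 open triangles.

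The gene with the smallest p was Slc5a7, which encodes the high affinity choline transporter known from cholinergic neurons. Its lowest, median and highest intensities were 170, 260 and 532 units in HH, against 68.8, 87.0 and 113 units in LL. The groups did not overlap, and the LL values lay around background: the probe was above it on 10 HH arrays and on 5 LL arrays. The fold change was 3.03 on 20 arrays (log2 difference 1.60 ± 0.17 SE, limma adjusted p = 7.2e-05) and 2.88 on 18 arrays (adjusted p = 0.00013). No background was subtracted from the intensities, which makes folds of dim probes smaller. Slc5a7 and Sfrp5 were the only genes called in each of the 28 fits that left out 1 animal or 1 cage.

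Sfrp5, a secreted antagonist of Wnt signals made by adipocytes, was higher in HH as well. It measured 242, 413 and 679 units (lowest, median, highest) in HH and 91.6, 151 and 261 units in LL, and the 2 groups overlapped only at their edges. The log2 difference was 1.45 ± 0.20 SE (2.73-fold, limma adjusted p = 0.0022) and 1.31 ± 0.19 without LL animals 1 and 4 (adjusted p = 0.0016). Over cage means on 18 arrays its call was lost (limma adjusted p = 0.26). HH cage 10 is represented there by 1 animal, HH animal 1. Its 242 units were the lowest cage mean of HH, beside 245 units for the highest of LL.

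Mest, an imprinted gene expressed from the paternal copy and known to rise in expanding fat of mice, was measured by 3 probes, which gave 2.33-fold, 2.58-fold and 2.91-fold higher values in HH. For the middle one the lowest, median and highest intensities were 698, 1365 and 2179 units in HH, against 192, 614 and 1032 units in LL. Its 2 lowest values, 192 and 274 units, were those of LL animals 4 and 1, and the other 8 LL animals started at 389 units. The 2.33-fold and 2.58-fold probes passed (limma adjusted p = 0.027 and 0.042), and the 2.91-fold probe, which is the brightest, did not (adjusted p = 0.096). Without the 2 arrays the 3 probes gave 1.99-fold, 2.10-fold and 2.20-fold, with adjusted p of 0.017, 0.022 and 0.068.

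Of 12 genes linked to fat pad expansion, chosen with earlier results of these data known, 11 were measured, each by its brightest probe. Sfrp5 alone was called, higher in HH. The median log2 difference of the list was 0.54 on 20 arrays and 0.29 on 18 arrays, beside medians of 0.01 and -0.01 over all genes. On 18 arrays 8 differences were positive and 3 negative, those of Cav1 (-0.03), Cav2 (-0.07) and Slc2a1 (-0.08). Npr3 differed by 0.52 on 20 arrays and by 0.16 on 18 arrays (limma adjusted p = 0.72 and 0.93). Trp53inp2, an autophagy gene, had 1170, 1751 and 2702 units (lowest, median, highest) in HH and 422, 1008 and 1494 units in LL (1.89-fold, limma adjusted p = 0.097). The imprinted zinc finger gene Peg3 had 82.6, 173 and 300 units in HH and 78.5, 90.6 and 112 units in LL (1.77-fold, adjusted p = 0.059). For Lep, which encodes leptin, the intensities were 6398, 12315 and 15705 units in HH and 2358, 9513 and 12089 units in LL. Its 1.62-fold difference was far from the threshold (adjusted p = 0.61) and was 1.26-fold without LL animals 1 and 4, whose Lep intensities of 2358 and 3061 units were the lowest of LL.

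Pdk4, the kinase that shuts pyruvate out of oxidation by inactivating pyruvate dehydrogenase, was higher in HH. Its lowest, median and highest intensities were 585, 1507 and 3311 units in HH, against 197, 620 and 751 units in LL. Only HH animal 7 lay within the range of LL. The log2 difference was 1.49 ± 0.29 SE (2.81-fold, limma adjusted p = 0.036) and 1.21 ± 0.25 (2.31-fold, adjusted p = 0.025) on 18 arrays. Pdhb and Pdha1, which encode both chains of the pyruvate dehydrogenase that Pdk4 acts on, went the other way on 18 arrays. Pdhb measured 1532, 1792 and 1978 units in HH and 1694, 2524 and 2958 units in the 8 LL animals (1.42-fold lower, adjusted p = 0.0071). Pdha1, named after its values were seen, was 1.32-fold lower on the same arrays (adjusted p = 0.042, and 0.0566 with the cage as a random block). Neither was called on 20 arrays (adjusted p = 0.71 and 0.79), where LL animals 1 and 4 held low values of both. Of 19 citrate cycle and pyruvate genes measured, these 2 were lower and Pdk4 was higher on 18 arrays, and 16 did not pass. Beside these counts, a probe of Idh3b, a subunit of isocitrate dehydrogenase of the citrate cycle, was 1.23-fold lower on 18 arrays (limma adjusted p = 0.0425). It was named after its values were seen, and was not called with the cage as a random block (adjusted p = 0.0566) or on 20 arrays (adjusted p = 0.81).

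Of 21 fatty acid oxidation and PPAR target genes measured, Pdk4 was called and the other 20 were not, in both fits. Their median log2 difference was 0.26 on 20 arrays and 0.04 on 18 arrays. Acadm, the medium-chain acyl-CoA dehydrogenase, differed by 0.39 on 20 arrays (adjusted p = 0.43) and by 0.22 on 18 arrays (adjusted p = 0.26) on the log2 scale.

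The largest decrease among the called probes on 20 arrays was that of Elovl6, the elongase that turns palmitate into stearate. HH animals had 268, 476 and 901 units (lowest, median, highest), against 787, 1255 and 3698 units in LL animals. All 10 HH animals lay below the LL median, and both groups met between 787 and 901 units. The log2 difference was -1.71 ± 0.31 SE (3.28-fold lower in HH, limma adjusted p = 0.021) on 20 arrays and -1.59 ± 0.31 (3.01-fold, adjusted p = 0.017) on 18 arrays.

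More genes of the de novo lipogenesis list were called when LL animals 1 and 4 were left out. The list is broader than the pathway itself. It also holds, among others, Tkt of the pentose phosphate pathway and the glycerol-3-phosphate dehydrogenase Gpd2. Of 24 listed genes, chosen with earlier results of these data known, 20 were measured. On 20 arrays 1 was lower and 19 did not pass, and the median log2 difference was -0.08. On 18 arrays 6 were lower, 0 were higher and 14 did not pass, beside 0.505% of all probes tested called lower. The median was -0.39, and 3 of the 20 differences were positive, beside 46.1% positive over all probes tested. Of the 6, Elovl6, Acly and Mlxipl lost their calls when the arrays of both groups carrying epididymis, testis or skeletal muscle transcripts were left out. Acaca, the acetyl-CoA carboxylase, measured 4034, 5946 and 7769 units in HH (lowest, median, highest). The 8 LL animals had 8320, 12013 and 16180 units, with no overlap, while LL animals 1 and 4 had 3763 and 3430 units. Acaca was called lower on 18 arrays (limma adjusted p = 0.00101), and on 20 arrays its 1.57-fold difference was not called (adjusted p = 0.595).

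Gpd2, the mitochondrial glycerol-3-phosphate dehydrogenase, had 664, 813 and 952 units in HH and 1041, 1413 and 1803 units in the 8 LL animals, again without overlap. LL animal 4 stood at 5235 units and LL animal 1 at 702 units. The difference on 18 arrays was 1.78-fold (limma adjusted p = 0.00013). Acly fell to 6859 units in the median of HH animals, against 14222 units in the 8 LL animals (1.98-fold, adjusted p = 0.041). With the breeding cage as a random block Acly was not called on 18 arrays (adjusted p = 0.0566). It was called on 20 arrays (adjusted p = 0.0387), where the estimated correlation within cages was negative, which lowers p. Transketolase (Tkt) of the pentose phosphate pathway was lower on 3 probes, by 2.08-fold on the brightest (adjusted p = 0.0016). Mlxipl, the carbohydrate-responsive factor ChREBP, which was named after its values were seen, was 1.62-fold lower (adjusted p = 0.0083). Srebf1 (SREBP-1) was not called on 18 arrays (log2 difference -0.46, limma adjusted p = 0.16).

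Fasn had 161, 251 and 421 units in HH and 268, 426 and 824 units in the 8 LL animals, a log2 difference of -0.90 ± 0.21 SE that missed the threshold (limma adjusted p = 0.062). Not every enzyme of fatty acid synthesis followed: Scd1, the stearoyl-CoA desaturase, had 30936, 41222 and 43659 units in HH and 24502, 34580 and 41222 units in LL (log2 difference 0.24 ± 0.09 on 20 arrays, adjusted p = 0.597, and 0.13 ± 0.06 on 18 arrays, adjusted p = 0.585). These Scd1 values are at the top of the scale, where the array can be near saturation, and the files give no saturation mark.

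**Figure D3:**
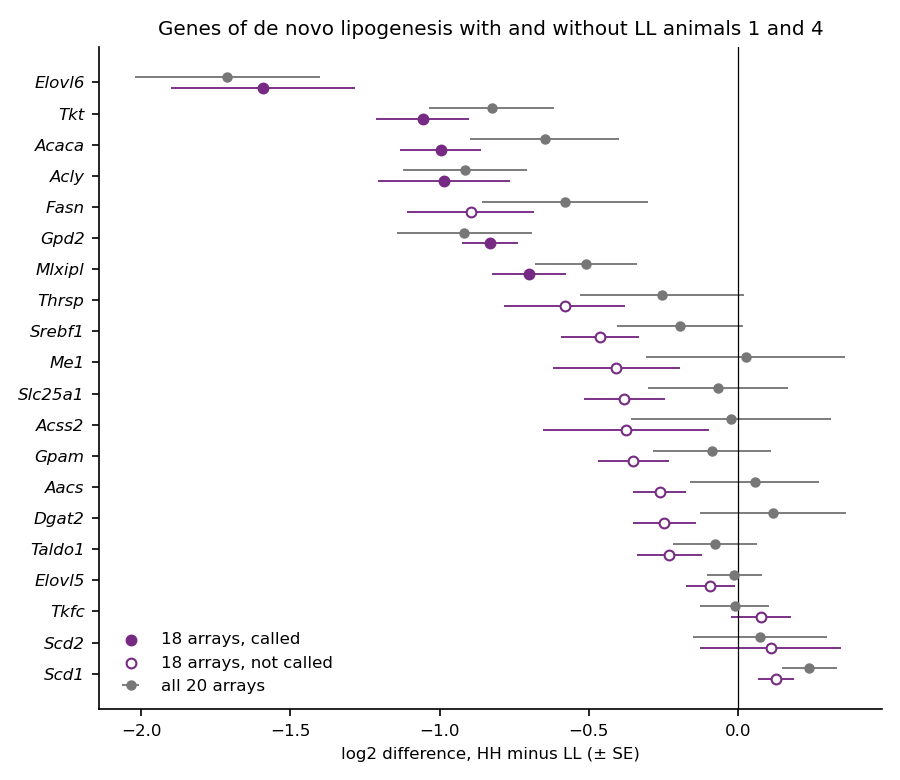
Log2 difference HH minus LL with its SE for the 20 measured genes of the de novo lipogenesis list, on all 20 arrays (grey) and on the 18 arrays without LL animals 1 and 4 (purple, filled where called). Elovl6 is called in both, Tkt, Acaca, Acly, Gpd2 and Mlxipl are called on 18 arrays, and Scd1 lies above 0 in both.

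Hsd11b1 encodes 11beta-hydroxysteroid dehydrogenase 1, the enzyme that regenerates active glucocorticoid inside fat cells, and was lower in HH on all 3 of its probes. On the brightest probe HH animals had 2772, 3571 and 5327 units (lowest, median, highest) and LL animals had 3472, 9523 and 11662 units. LL animals 1 (4749 units) and 4 (3472 units) were the only LL animals within the range of HH, and the other 8 LL animals lay at 8015 units or above. The log2 difference was -1.17 ± 0.19 SE on 20 arrays (limma adjusted p = 0.00996) and -1.42 ± 0.11 on 18 arrays (2.68-fold lower in HH, adjusted p = 4.4e-07), the smallest p of that fit. It was also called over cage means on 18 arrays (adjusted p = 0.012). Of 13 measured genes of the glucocorticoid response, Hsd11b1 was lower, Pdk4 was higher and 11 did not pass, in both fits. Tsc22d3, which is induced by glucocorticoid, differed by 0.42 on 20 arrays and 0.19 on 18 arrays on the log2 scale (adjusted p = 0.68 and 0.81).

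A repressor of the circadian clock, Bhlhe40, and a second one, Ciart, were lower in HH. Bhlhe40 (Dec1), a repressor that acts on the clock genes, had 680, 956 and 1459 units in HH and 1212, 1740 and 2497 units in LL (log2 difference -0.87 ± 0.15 SE, limma adjusted p = 0.015). Ciart (Chrono), a repressor of the CLOCK and BMAL1 pair, had 107, 140 and 183 units in HH and 143, 230 and 305 units in LL. Among LL animals only animal 4, at 143 units, lay within the range of HH. This Ciart probe was 1.54-fold lower on 20 arrays (adjusted p = 0.038) and 1.66-fold lower on 18 arrays (adjusted p = 0.0016). The other, brighter Ciart probe was not called on 20 arrays (1.53-fold lower, adjusted p = 0.22). It was called on 18 arrays (1.71-fold lower, adjusted p = 0.011). Dbp, a transcription factor driven by the clock, had 3027, 4416 and 5431 units in HH and 5686, 6334 and 7700 units in the 8 LL animals (1.49-fold lower, adjusted p = 0.0198), but was not called on 20 arrays (1.25-fold, adjusted p = 0.75).

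The core clock genes were not called. Of 15 clock genes measured, 3 were lower and 12 did not pass on 18 arrays, with a median log2 difference of -0.14. On 20 arrays Bhlhe40 alone passed among the brightest probes of these genes. On the log2 scale Arntl (BMAL1) differed by -0.14 on 20 arrays and -0.12 on 18 arrays (adjusted p = 0.843 and 0.925). Per3 differed by 0.02 on 20 arrays and -0.14 on 18 arrays, so its sign turned (adjusted p = 0.976 and 0.858). Nr1d1 differed by -0.01 on 20 arrays and -0.27 on 18 arrays (adjusted p = 0.995 and 0.507, the second with an unadjusted p of 0.0308). The labels do not give the hour at which each animal was killed, and its part in these differences was not tested.

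The E-box CACGTG, the sequence that CLOCK and BMAL1 bind, was searched in the 250 bases upstream of gene starts in RefSeq promoters (build GRCm38.p6). It is a palindrome, so both strands are covered at once. It was found in 6.02% of 32851 promoters, and 3 or more copies were found in 0.0609%. Of the 78 called genes, 56 had a promoter in the table and 6 of these (10.7%) held the motif, beside 9.96% of 7938 tested genes with a promoter. Ciart held 3 copies, at positions -116, -58 and -44 from the gene start. The upstream stretches of 3 genes named above are shown to compare the clock repressor Ciart with Mlxipl, which held 1 copy, and with Dbp, which held 0 in this window, with the motif in capitals (Ciart at chr3:95882229-95882478, minus strand, Mlxipl at chr5:135089640-135089889, plus strand, Dbp at chr7:45704997-45705246, plus strand).
Ciart: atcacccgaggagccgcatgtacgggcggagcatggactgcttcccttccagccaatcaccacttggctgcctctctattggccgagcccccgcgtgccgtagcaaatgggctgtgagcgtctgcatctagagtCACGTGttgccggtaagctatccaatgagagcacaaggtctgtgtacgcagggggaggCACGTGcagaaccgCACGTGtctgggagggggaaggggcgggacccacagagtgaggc
Mlxipl: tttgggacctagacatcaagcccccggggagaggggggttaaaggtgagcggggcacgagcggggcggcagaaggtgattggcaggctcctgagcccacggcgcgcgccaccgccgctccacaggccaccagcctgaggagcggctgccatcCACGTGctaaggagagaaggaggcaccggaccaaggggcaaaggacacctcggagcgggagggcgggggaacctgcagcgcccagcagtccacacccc
Dbp: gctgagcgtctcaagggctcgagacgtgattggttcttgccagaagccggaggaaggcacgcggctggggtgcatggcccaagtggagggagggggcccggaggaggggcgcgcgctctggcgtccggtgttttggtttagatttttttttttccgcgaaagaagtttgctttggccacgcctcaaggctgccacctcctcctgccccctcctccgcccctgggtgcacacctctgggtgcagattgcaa

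Adap2, which encodes a GTPase-activating protein of ARF GTPases, was higher in HH without overlap. It measured 346, 542 and 792 units (lowest, median, highest) in HH and 136, 265 and 320 units in LL. The log2 difference was 1.13 ± 0.18 SE (2.19-fold, limma adjusted p = 0.00996) and 0.97 ± 0.16 on 18 arrays (adjusted p = 0.00415). It was called over cage means on 18 arrays (adjusted p = 0.047).

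Pltp, the phospholipid transfer protein that moves lipid between lipoproteins and is a known target of the sterol receptor LXR, had 2137, 2921 and 4990 units in HH and 1512, 1790 and 2420 units in LL. The groups overlapped between 2137 and 2420 units. The difference was 1.66-fold (limma adjusted p = 0.015) and 1.58-fold on 18 arrays (adjusted p = 0.015). Of 11 measured LXR targets and sterol export genes Pltp was higher and 10 did not pass, in both fits. The median log2 difference was 0.31 on 20 arrays and 0.23 on 18 arrays. On 18 arrays 8 differences were positive and 3 negative, those of Srebf1 (-0.46), Lpl (-0.18) and Abca1 (-0.08). Apoe, the apolipoprotein that macrophages and adipocytes secrete, had 5766, 8320 and 9946 units in HH and 3782, 5639 and 7535 units in LL (1.39-fold, adjusted p = 0.15).

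C6, a component of the terminal complement complex, was measured by 2 probes. The called one had 319, 454 and 545 units in HH and 112, 257 and 414 units in LL (1.87-fold, limma adjusted p = 0.035), and the other was 1.80-fold higher in HH (adjusted p = 0.087). Both were called on 18 arrays (1.63-fold and 1.56-fold, adjusted p = 0.0083 and 0.049), the second not with the cage as a random block (adjusted p = 0.0609). Of 10 complement genes measured none passed on 20 arrays by its brightest probe, in a fit that gave 1037 probes an unadjusted p under 0.05. On 18 arrays C6 was higher and 9 did not pass. C4b, the complement factor C4, measured 2326, 2823 and 3949 units in HH and 1139, 2021 and 2565 units in LL (log2 difference 0.59 ± 0.14 SE, adjusted p = 0.108).

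App, the amyloid precursor protein, and Alg14, a subunit of an enzyme of N-glycan assembly, did not overlap between the groups either. App had 3867, 4458 and 5139 units in HH and 2531, 3454 and 3678 units in LL (1.35-fold, limma adjusted p = 0.015). Alg14 had 961, 1058 and 1232 units in HH and 455, 805 and 892 units in LL (1.43-fold, adjusted p = 0.036). Ackr4, a scavenging receptor for chemokines, had 170, 206 and 252 units in HH and 117, 149 and 173 units in LL (1.40-fold, adjusted p = 0.015). LL animal 4 had the lowest value of Alg14 and of Ackr4, and LL animal 1 that of App.

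On the lower side, Pcsk4, a proprotein convertase best known from germ cells, was lower in HH on each of its 3 probes, of which 2 were called on 20 arrays and 3 on 18 arrays. The brightest had 176, 223 and 241 units in HH and 198, 359 and 579 units in LL. Here LL animal 1 was the lowest of LL and LL animal 4, whose array carried testis transcripts, the highest, and the 8 others lay between 296 and 398 units without overlap with HH. The difference was 1.65-fold on 20 arrays (limma adjusted p = 0.027) and 1.66-fold on 18 arrays (adjusted p = 0.00013).

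Hvcn1, a voltage-gated proton channel of leukocytes, had 88.3, 124 and 159 units in HH and 144, 197 and 282 units in LL (1.64-fold lower, limma adjusted p = 0.015), and its second probe was called too (1.63-fold, adjusted p = 0.046). Mapk8ip1, a scaffold of the JNK kinases, had 90.4, 184 and 209 units in HH and 203, 282 and 351 units in LL (1.61-fold lower, adjusted p = 0.047). Its other probe was not called on 20 arrays (1.26-fold lower, adjusted p = 0.21). Tmem79, a membrane protein studied mainly in skin, was 1.75-fold lower (adjusted p = 0.0497). Bcl2a1c, a member of the BCL2 family with near-identical copies in the mouse genome that a probe may not tell apart, lay near background. It had 84.9, 92.8 and 101 units in HH and 103, 115 and 147 units in LL, without overlap (1.25-fold lower, adjusted p = 0.044).

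Cidea, a lipid droplet protein of brown and white adipocytes, was the only called member of both the lipid droplet list (15 measured) and the brown and beige list (6 measured). It had 181, 193 and 292 units in HH and 256, 414 and 676 units in the 8 LL animals, and 9 of the 10 HH animals lay below the lowest of these LL animals. The difference was 2.05-fold lower in HH on 18 arrays (limma adjusted p = 0.0016) and 1.73-fold on 20 arrays (adjusted p = 0.2). Ucp1, the uncoupling protein of brown fat, did not pass the filter on dim probes.

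Genes of adipocyte identity gave no call in either fit (14 measured of 16 listed). Their median log2 difference was 0.20 on 20 arrays with 13 of 14 positive, and -0.10 on 18 arrays with 3 of 14 positive, so the direction turned with the 2 arrays. Over all genes 52.6% were positive on 20 arrays and 45.2% on 18 arrays. Adipoq differed by 0.08 ± 0.14 SE on 20 arrays and by -0.12 ± 0.07 on 18 arrays (limma adjusted p = 0.91 and 0.72). The geometric mean of these genes was at its lowest at 756 units within LL, against 2406 units for the lowest of the 8 other LL animals and 1929 units for the lowest HH animal. In bulk tissue fewer adipocytes and less RNA per adipocyte cannot be told apart.

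Marker lists of cells other than adipocytes held no call either. Of 16 macrophage genes 0 were called on 20 arrays and 0 on 18 arrays in limma, with 3 at an unadjusted p under 0.05 on 18 arrays. Adgre1 (F4/80), the macrophage surface marker, had 795, 1605 and 2441 units in HH and 613, 1598 and 3027 units in LL (1.09-fold, adjusted p = 0.92). Ccl2, the monocyte chemoattractant, had 99.4, 127 and 708 units in HH and 70, 107 and 752 units in LL (adjusted p = 0.87), with HH animal 5 and LL animal 6 far above the rest of their groups. The lists of lymphocytes (8 measured), mast cells (8), endothelium (13) and mesothelium (10) held 0 calls in both fits, and so did those of chemokines and acute phase (17), interferon response (15), cholesterol synthesis (17), mitochondrial respiration (17) and the cell cycle (14). The extracellular matrix list (24 measured) held 0 calls by brightest probes in both fits, with 23 of 24 differences positive on 20 arrays and 19 on 18 arrays. Over all genes 52.6% were positive on 20 arrays and 45.2% on 18 arrays. The endothelium and interferon lists were positive for 13 of 13 and 15 of 15 genes on 20 arrays, and for 9 and 11 on 18 arrays. A second, dimmer probe of Pcolce2, an enhancer of collagen processing, was 1.57-fold higher in HH on 18 arrays (adjusted p = 0.0045), while its brighter probe missed the threshold (1.52-fold, adjusted p = 0.29).

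The lists of other tissues held 0 calls in both fits. Of the 36 lists the skeletal muscle list had the largest median log2 difference on 20 arrays, 0.87 with 10 of 10 genes positive. On 18 arrays it was 0.89, and for epididymis and seminal vesicle genes the median was 1.07 (-0.24 on 20 arrays). The part of these transcripts in the calls was not tested beyond leaving arrays out. Without HH animals 3 and 10, 2 probes were called in place of 24, those of Slc5a7 (log2 difference 1.43, limma adjusted p = 4.26e-05) and Sfrp5 (1.36, adjusted p = 0.018). All 24 probes kept their direction and an unadjusted p under 0.05 there, and the median size of their differences was 0.80 in place of 0.84 on the log2 scale. With the arrays of both groups that carried epididymis, testis or skeletal muscle transcripts left out, 34 probes were called, 8 higher and 26 lower in HH, and 15 of the 24 were among them. The brightest probe of Hsd11b1 kept its call with a log2 difference of -1.37 (limma adjusted p = 3.56e-05), and Slc5a7, Sfrp5 and Adap2 kept theirs. The calls of Elovl6 (adjusted p = 0.0576), C6 (0.0576), Ackr4 (0.0687), Tmem79 (0.0743), Pltp (0.0772), Pdk4 (0.0774), Bcl2a1c (0.0774) and both Mest probes (0.106 and 0.145) were lost there. Of genes called on 18 arrays only, Acly (limma adjusted p = 0.233), Mlxipl (0.0503), Pdhb (0.0717), Pdha1 (0.223) and Dbp (0.107) lost their calls too. Acaca (0.00801), the brightest Tkt probe (0.0119), Gpd2 (0.00286) and Cidea (0.0181) kept theirs.

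Families were taken into account in other fits. With the cage as a random block, which estimates how much littermates resemble each other, all 24 probes were called again on 20 arrays, and 81 of the 97 on 18 arrays. The estimated correlation within cages was -0.06 on 20 arrays and 0.04 on 18 arrays. A negative estimate lowers the p-values of a comparison between cages, and the 20-array fit called 47 probes. That fit therefore cannot show whether the 24 calls withstand resemblance of littermates. With 1 mean per cage, 4 against 4, the 20 arrays gave 0 calls in limma, with 1182 probes at an unadjusted p under 0.05. Each cage has equal weight there, also HH cage 10 with 1 animal. The 18 arrays gave 19 calls, of which 9 were among the 24 and 18 among the 97. Slc5a7, Adap2, Pltp, Gpd2 and Cidea were called there, and so were 3 probes each of Hsd11b1 and Pcsk4. Elovl6, Sfrp5, Mest and Pdk4 were not (adjusted p between 0.143 and 0.291). Leaving out 1 of the HH cages, either cage 21 or cage 23 with 3 animals each, left 2 probes called on 20 arrays.

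LH and HL animals also differ in both diets, but the dam's diet was opposite to the diet after weaning, and they share no array with HH and LL. They are not free of the same families: 3 of the 4 HH cages also gave HL animals and 2 of the 4 LL cages also gave LH animals. LH against HL gave 100 called probes (0.702%). All 24 probes called in HH against LL had the same sign in LH against HL, 5 of them passed there, and of the 97 probes called on 18 arrays 77 had the same sign and 12 passed. That fit keeps HL animals 2, 6 and 8, whose arrays were under the correlation limit as LL animals 1 and 4 were, and whose epididymis lists had 5471, 5626 and 783 units and testis lists 851, 2541 and 1814 units. Without them 10 of the 24 passed with all 24 of the same sign, and of the 97 probes 96 had the same sign and 30 passed. The fit without them called 0.681% of all probes tested. The share of all probes with the same sign in both contrasts was not counted, so the sign counts have no base rate beside them. Elovl6 had 424, 651 and 1041 units in LH and 720, 2794 and 6130 units in HL (lowest, median, highest), a log2 difference of -1.79 ± 0.32 SE (adjusted p = 0.015), beside -1.71 ± 0.31 for HH against LL. C6 differed by 1.47 ± 0.16 between LH and HL (adjusted p = 4.7e-05) and was higher in LH, as was Slc5a7 (adjusted p = 0.0464). Without the 3 HL arrays C6 and Elovl6 kept their calls (adjusted p = 1.92e-06 and 0.00666) and Slc5a7 lost its call (adjusted p = 0.12).

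**Figure D4:**
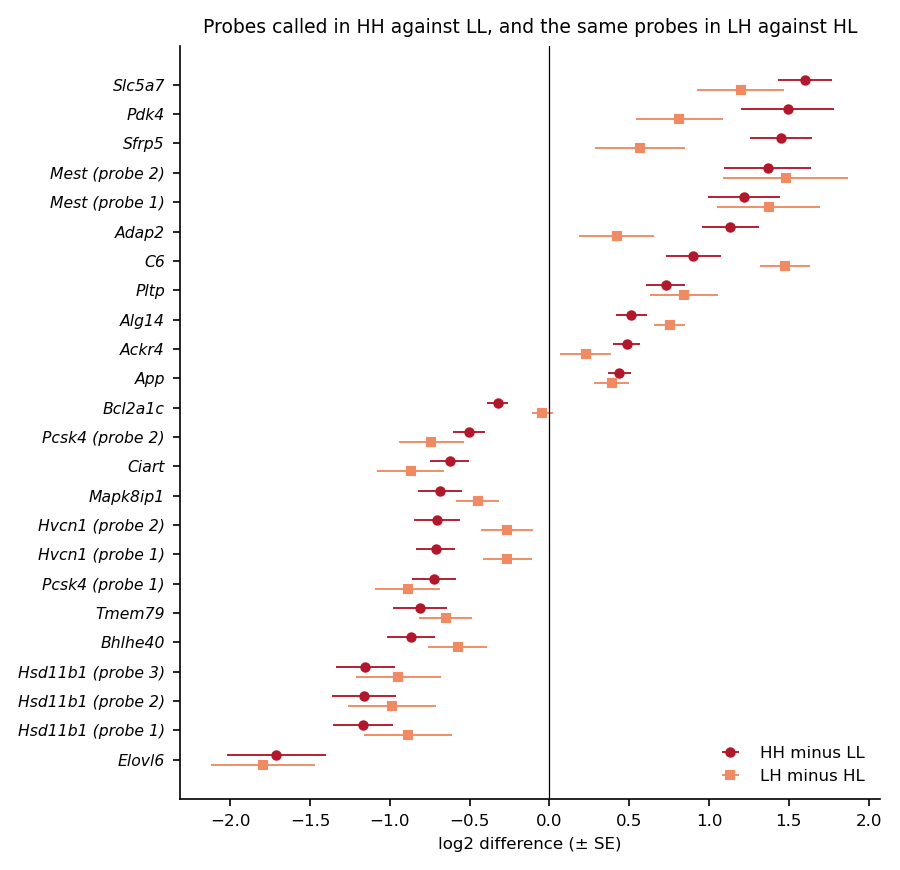
Log2 difference with its SE for the 24 probes called in HH against LL, for HH minus LL (circles) and for LH minus HL (squares). All 24 squares lie on the side of their circle, and the squares of Bcl2a1c, Adap2 and Sfrp5 are closer to 0 than their circles.

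Whether the contrasts differ was tested in 1 model of all 40 arrays. For the difference of HH minus LL and LH minus HL, 0 probes were called in limma (0%), with 493 probes at an unadjusted p under 0.05, and 0 were called in each of 4 other versions of that fit. Sfrp5 differed by 1.45 in HH against LL and by 0.56 ± 0.28 in LH against HL, a difference of 0.89 ± 0.35 SE (adjusted p = 0.99). Adap2 differed by 1.13 and by 0.42 ± 0.24, a difference of 0.71 ± 0.30 SE (adjusted p = 0.99). Bcl2a1c differed by -0.32 and by -0.04 ± 0.07, a difference of -0.28 ± 0.09 SE (adjusted p = 0.99). A missed threshold does not show that the contrasts are alike.

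**Figure D5:**
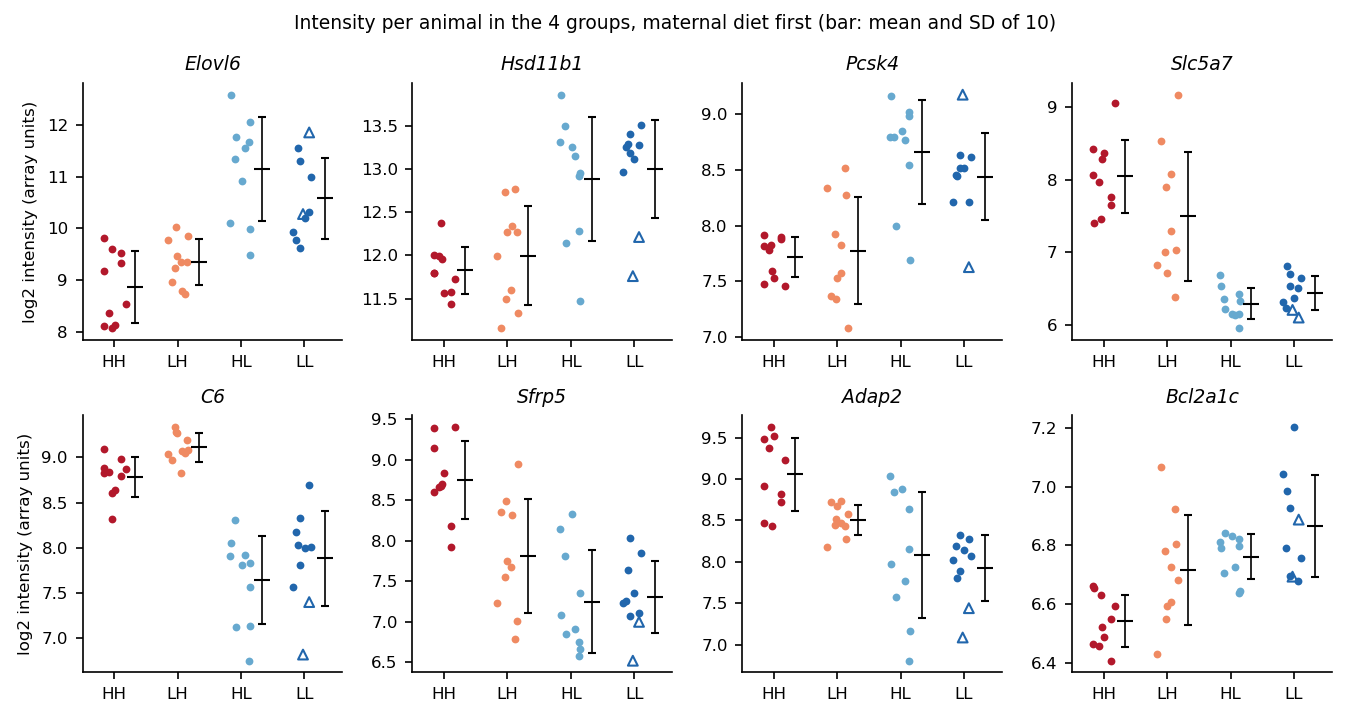
Log2 intensity of 8 genes in each animal of HH, LH, HL and LL, with the mean and SD of 10 animals as a bar and LL animals 1 and 4 as open triangles. The means of Elovl6, Hsd11b1 and Pcsk4 are lower, and those of Slc5a7 and C6 higher, in both groups fed HF after weaning (HH and LH) than in HL and LL. HH has the highest mean of Sfrp5 and Adap2 and the lowest of Bcl2a1c.

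Medians of the 4 groups are given side by side for 5 genes. Hsd11b1 had medians of 3571 units in HH, 4502 units in LH, 8534 units in HL and 9523 units in LL. Slc5a7 had medians of 260 units in HH, 144 units in LH, 77.7 units in HL and 87.0 units in LL, with the LH animals spread between 83.7 and 576 units. Pcsk4 had medians of 223 units in HH, 208 units in LH, 445 units in HL and 359 units in LL. For Sfrp5 the medians were 413 units in HH, 210 units in LH, 128 units in HL and 151 units in LL, and for Adap2 they were 542, 360, 267 and 265 units in the same order. The LH median lay nearer to HH than to LL for Hsd11b1 and Pcsk4, and nearer to LL than to HH for Slc5a7, Sfrp5 and Adap2. It lay between HH and LL for all of these but Pcsk4. By mean log2 intensity LH was 1.05 above LL and 0.55 below HH for Slc5a7, 0.51 and 0.94 for Sfrp5, and 0.58 and 0.56 for Adap2. The comparisons that share 1 of these groups with HH or LL are given by their own counts only: 31 probes for LH against LL, 0 for HL against LL (154 at an unadjusted p under 0.05), 0 for HH against LH (1775 at an unadjusted p under 0.05) and 73 for HH against HL.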

How the data were processed

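RNA of the gonadal fat pad of 40 males was hybridised to 1 MouseRef-8 v2 beadchip per animal. The deposited values are fluorescence intensities, which the authors quantile-normalised over all 40 arrays, with BeadStudio named in the submitters' processing notes. They hold no negative values (47.5 to 43659 units), array medians lie between 98.7 and 99.1 units and the sorted columns differ by at most 2.31%. Values were taken as log2 with no further normalisation. Of 25697 probes, 23978 have 1 gene symbol and 1719 none, and 23962 were matched by gene ID. Background was the 95th percentile of 1305 olfactory and vomeronasal receptor probes on each array, and 14248 probes above it on at least 20 arrays were tested. Of the 1305 probes, 48 (3.68%) passed that filter.

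Groups came from the maternal and own diet in the labels. HH and LL were compared with limma 3.58.1 (lmFit, eBayes with an intensity trend) in R 4.3.3, with Benjamini-Hochberg adjustment over all 14248 probes and a threshold of 0.05. Arrays were left out as carriers of other tissues where the mean log2 intensity of the epididymis or testis list was over 2 log2 units above the median of the 40 arrays. Body measures were compared by permutation tests in scipy 1.17.1 (Python 3.11.15). Alternatives covered carriers, cage, filter, offset, centring, variance settings and each animal and cage left out, and the procedure was tested on simulated data. Bead counts and depth were not used here, and the number of arrays limits the precision. Nothing in the labels states that animals were extracted or scanned in batches, and no 2 arrays held identical values.

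Genes named were the 12 highest and 12 lowest differences among called probes that hold on 18 arrays, up to 4 members of each of 36 lists by p, the 5 called probes in each direction that change most between the 20-array and 18-array fits, and 22 genes fixed by name. Not every one of these is described above. Of the genes fixed by name, Retn, Igf2 and Tuba1a are not described and were called in neither fit. A list gene is represented by its brightest probe. The members and lists were chosen with earlier results of these data known.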

Additional observations from a re-analysis of the deposited data

Results flagged for a closer look

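In 11 of 114 groups of arrays or animals examined (9.65%) 1 value stood apart from the other 9 by more than Dixon's critical value for 10 samples, 0.466 of the range. Chance gives about 1 in 20. HH animal 6 was the lowest of HH for 3 genes, with 90.4 units of Mapk8ip1, 6398 units of Lep and 95.2 units of Arntl. HH animal 10, whose array was the brightest for skeletal muscle genes, was the lowest of HH for Scd1 (30940 units) and Adgre1 (795.2 units). HH animal 4 was the highest of HH for Cidea (292.2 units). For Ccl2, HH animal 5 (707.8 units) and LL animal 6 (751.6 units) were the highest of their groups.

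LL animal 4, one of the arrays left out of the 18-array fit, stood apart in 3 of the 11 cases. It had the lowest Alg14 of LL (454.9 units), the highest Gpd2 (5235 units) and the highest geometric mean of the testis list (6688 units).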

How the results depend on the processing

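The count of 24 called probes depended on the arrays and the family structure. It was 97 without LL animals 1 and 4, which are also the LL arrays of low correlation, 48 without carriers of either group, 128 (84 higher, 44 lower) with the epididymis and testis list means as covariates and 175 (88 higher, 87 lower) with array weights. It was 47 with the cage as a random block, 0 over cage means (limma, 1182 probes at an unadjusted p under 0.05), 12 with 1 probe per gene and 15 with no filter on dim probes. Of fits chosen after seeing the data, leaving out HH animals 3 and 10 gave 2, and the 18 arrays with the cage as a block gave 81. Leaving out 1 animal or cage gave 2 to 41 calls. The count fell to 2 without cage 21 or cage 23, was between 11 and 15 without HH animals 2, 3, 4, 5, 9 or 10 or LL animals 3 or 5, and was 41 without LL animal 4. The other settings, apart from those that left out 1 animal or cage, gave 19 to 34 calls. On the 18 arrays Mogat1 (-0.36, adjusted p = 0.0373) and Eif4e3 (-0.30, adjusted p = 0.0365) were called lower although their 20-array differences, uncalled, were positive; Mogat1 was not called there with the cage as a block (adjusted p = 0.0504). Over cage means the body differences were 1.87 g at 3 weeks, 5.59 g at the second weighing and 2.54 mm in length, each with an exact adjusted p of 0.0762. LH against HL gave 97 calls without low-correlation arrays, and the difference of the contrasts gave 0 in every version run. The cause of these changes was not tested. No paired analysis was possible because the labels give the groups no shared replicate numbers and HH and LL share no cage. Probes near background, such as those of Slc5a7 and Bcl2a1c in 1 group, limit the size of a fold.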

Other observations

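Several genes outside the lists, chosen here after their values were seen, were called on the 18 arrays only. Dusp4, a phosphatase that inactivates MAP kinases, had 175, 317 and 415 units (lowest, median, highest) in HH and 497, 565 and 700 units in the 8 LL animals, without overlap (1.93-fold lower, limma adjusted p = 0.0022). Gys2, the liver form of glycogen synthase, was above background on 0 of 10 HH arrays and on 8 of 10 LL arrays, with 88.7, 105 and 140 units in the 8 LL animals (adjusted p = 0.000942), and no fold is given. Pygl, a glycogen phosphorylase, was lower on both probes (1.37-fold each, adjusted p = 0.026 and 0.0424). Angptl8, an inhibitor of lipoprotein lipase known to rise with feeding, had 94.1, 105 and 169 units in HH and 131, 201 and 303 units in the 8 LL animals (1.80-fold lower, adjusted p = 0.0198). Slc5a6, a transporter of biotin and pantothenate, was 1.75-fold lower (adjusted p = 0.00734) and the carboxylesterase Ces1f 2.02-fold lower (adjusted p = 0.00834). On the higher side, Srpx2, a secreted protein, was higher on both probes (1.51-fold and 1.65-fold, adjusted p = 0.0405 and 0.0401), and Sncg, which encodes gamma-synuclein, was 1.45-fold higher (adjusted p = 0.0402). With the cage as a random block on the 18 arrays Sncg (adjusted p = 0.0566), both Srpx2 probes (0.0534 and 0.0521) and the second Pygl probe (0.0566) were not called. In LL animals 1 and 4 each of these genes had values below the lowest of the 8 other LL animals. With the arrays of both groups carrying epididymis, testis or skeletal muscle transcripts left out, Dusp4, Gys2 and Sncg kept their calls (limma adjusted p = 0.00801, 0.0119 and 0.0373). The other genes named here lost theirs.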
